A study of Homo sapiens with 6 samples.

Results

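The collagen chain genes were taken as every gene of the deposited table whose symbol has the form COL, a type number, A and a chain number, and whose transcript types include protein coding. There were 44 such genes among 58825 in the table, and no symbol was repeated. They were measured in PANC-1, an established human pancreatic ductal carcinoma line, by paired-end RNA sequencing of a poly(A) preparation. The CMR group held 3 libraries from cells given 8 µM of an agent labelled CMR for 48 h, and the control group held 3 libraries of the same line. Neither the full name of CMR nor the handling of the control cells is given in the labels. Nor do they tell whether the 3 libraries of a group were grown as separate cultures, so the p-values here reflect the spread among 6 libraries, and that spread may be technical.

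A collagen molecule is a triple helix of chains rich in glycine and proline, made in the endoplasmic reticulum (ER), where prolines and lysines are hydroxylated. Fibrillar collagens are exported as procollagens, trimmed outside the cell and assembled into cross-linked fibrils, and type IV collagen forms the network of basement membranes. In pancreatic carcinoma most collagen of the stroma is made by fibroblasts and stellate cells, but carcinoma cells also transcribe some chains. The 44 genes were grouped by structure as 11 fibrillar, 6 of the basement membrane network, 6 beaded-filament, 1 anchoring-fibril, 3 hexagonal-network, 10 fibril-associated (FACIT), 4 transmembrane and 2 multiplexin chains, with COL26A1 left as other.

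Library totals ran from 51147268 to 70129221 counts. Of the 8 markers set for the line (keratins, EPCAM, vimentin and cadherins), 7 averaged at least 1 FPKM (fragments per kilobase of transcript, scaled to library size, a level per length). The 8 summed to 1237 to 1355 FPKM in control and 343 to 546 with CMR. Of them, 6 were called lower with CMR (KRT7, KRT8, KRT18, KRT19, VIM and CDH2), beside 18.1% of all tested genes. EPCAM (log2 fold change 0.21, edgeR adjusted p = 0.572) and CDH1 (-0.72, edgeR adjusted p = 0.324) were not called, and their groups overlapped. The 8 fibroblast and stellate cell markers were low. None reached a mean of 1 FPKM, DPT had no count in any library, and their summed level was 0.708 to 0.815 FPKM in control and 0.0804 to 0.148 with CMR. Of the 4 that could be tested, PDGFRA and PDGFRB were not called (edgeR adjusted p = 0.385 and 0.139) and THY1 was lower with CMR (log2 fold change -2.41). ACTA2 was lower as well (log2 fold change -4.02), a call lost without control replicate 1 (edgeR adjusted p = 0.0735) and with the replicate block (0.0623). The labels' protocol also speaks of an adipose source; the 5 adipocyte markers summed to at most 0.164 FPKM in any library, and the 5 endothelial markers to at most 0.0885. The 6 leukocyte markers summed to 26.7 to 33.3 FPKM in control and 24.6 to 31.1 with CMR, nearly all from CD68 (mean 27.8 FPKM, not called), with CD3E at no count. The summed levels of the fibroblast list and of the line's own list were thus both lower with CMR, as was that of the collagen chains given below, and their part in those results was not tested. Fewer cells of a type and less RNA per cell cannot be told apart in bulk libraries.

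Upstream sequences were taken from RefSeq (GRCh38.p14), which matched 32 of the 44 genes. The stretches printed here are the 250 bases before the RefSeq start of chains whose levels or differences are described below, so that a reader can set them beside the values. Capitals mark the CCAAT box (CCAAT or ATTGG) and the GC box (GGGCGG or CCGCCC), searched on both strands. COL11A1, COL7A1 and COL13A1 were lower with CMR, COL6A2 was higher, and COL5A1 is the scarce partner of COL5A2. They lie at chr1:103108523-103108772 (minus strand), chr3:48595330-48595579 (minus), chr10:69801656-69801905 (plus), chr21:46097862-46098111 (plus) and chr9:134641553-134641802 (plus). The last sequence is the interval between the starts of COL4A1 and COL4A2, which are transcribed away from each other, at chr13:110307158-110307283, given on the plus strand.
COL11A1: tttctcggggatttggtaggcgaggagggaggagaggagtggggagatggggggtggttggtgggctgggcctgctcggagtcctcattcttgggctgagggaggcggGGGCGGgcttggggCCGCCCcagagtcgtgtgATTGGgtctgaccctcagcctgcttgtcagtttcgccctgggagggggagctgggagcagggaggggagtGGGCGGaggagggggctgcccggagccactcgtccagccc
COL7A1: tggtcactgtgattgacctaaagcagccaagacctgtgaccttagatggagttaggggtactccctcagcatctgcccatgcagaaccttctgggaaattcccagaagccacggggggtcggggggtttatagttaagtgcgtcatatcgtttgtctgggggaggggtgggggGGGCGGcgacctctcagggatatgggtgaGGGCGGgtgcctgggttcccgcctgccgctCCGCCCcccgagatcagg
COL13A1: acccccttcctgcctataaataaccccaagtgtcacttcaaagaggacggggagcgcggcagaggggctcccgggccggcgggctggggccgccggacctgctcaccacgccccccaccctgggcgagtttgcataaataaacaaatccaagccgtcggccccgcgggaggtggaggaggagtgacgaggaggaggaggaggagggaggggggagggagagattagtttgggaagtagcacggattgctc
COL6A2: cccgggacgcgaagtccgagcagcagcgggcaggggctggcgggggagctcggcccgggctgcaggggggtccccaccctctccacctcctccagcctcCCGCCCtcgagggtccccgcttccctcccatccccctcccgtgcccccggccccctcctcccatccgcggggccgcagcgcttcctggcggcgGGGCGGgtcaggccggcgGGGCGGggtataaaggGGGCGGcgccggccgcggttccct
COL5A1: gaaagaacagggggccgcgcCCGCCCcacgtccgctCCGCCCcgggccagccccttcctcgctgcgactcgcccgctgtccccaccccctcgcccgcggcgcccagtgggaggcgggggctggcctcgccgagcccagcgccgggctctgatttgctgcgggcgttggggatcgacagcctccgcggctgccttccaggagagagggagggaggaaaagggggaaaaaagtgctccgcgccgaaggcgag
COL4A1 and COL4A2 interval: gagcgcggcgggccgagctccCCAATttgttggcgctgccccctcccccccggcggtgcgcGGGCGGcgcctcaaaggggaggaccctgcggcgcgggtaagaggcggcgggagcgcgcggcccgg

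The GC box was present in the window of 18 of the 32 matched chains, with 42.3% of the first-listed windows of 27305 RefSeq genes holding one. The CCAAT box was present in 9 of the 32, with 33.0% over all genes. TATAAA was found in 5 of the 32 (11.1% over all genes), among them COL7A1, COL13A1 and COL6A2. TTGCATCA, the core letters of an element bound by the stress factor ATF4, was found in none of the 32 windows (0.820% over all genes). The COL4A1 and COL4A2 interval is 126 bases long, holds 1 CCAAT box and 1 GC box, and is 80.2% G and C, where the median window over all genes is 58.0%. COL18A1 has a pair of RefSeq starts, with windows of 88.4% and 66.4% G and C, which the counts per gene do not tell apart. These matches describe letters and are not evidence that a factor binds.

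PANC-1 transcribed few collagen chains at an appreciable level. Summed over the 44 genes, collagen mRNA came to 152, 138 and 134 FPKM in control and 81.5, 68.1 and 55.1 with CMR. Every CMR library lay below every control library, and CMR replicate 3 had the lowest sum. As a share of all FPKM this was 0.0572% ± 0.00356 (SD, n = 3) in control and 0.0292% ± 0.00494 with CMR. COL5A2 and COL18A1 together made up 77.5% ± 2.80 of the collagen sum in control and 80.7% ± 2.21 with CMR. With COL11A1, COL1A1 and COL7A1 added, 5 chains held 92.5% ± 1.19 and 90.8% ± 0.865. Only 9 of the 44 genes averaged at least 1 FPKM in either group.

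**Figure D1:**
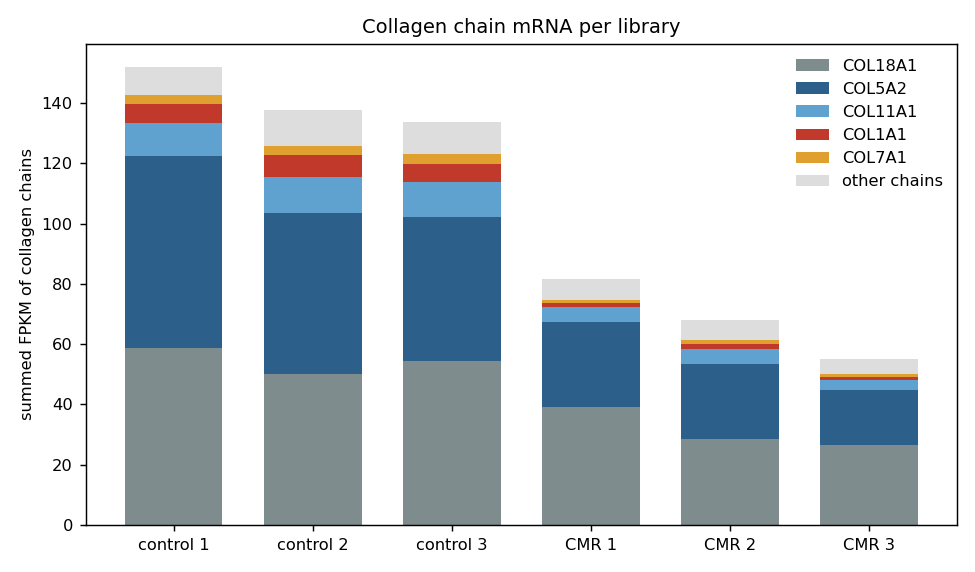
Summed level (FPKM, per transcript length) of collagen chain mRNA in each library, stacked by chain. Control libraries reach 134 to 152 FPKM and CMR libraries 55.1 to 81.5, with COL18A1 and COL5A2 as the largest blocks in all 6.

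Counts were compared between groups across all genes. Of 19200 genes tested, 38.6% were called at an adjusted p under 0.05 (edgeR's quasi-likelihood test, Benjamini-Hochberg), 18.1% lower and 20.5% higher with CMR. Of the 44 chains, 32 had enough counts to be tested and 12 did not. Of these 32, 11 fell with CMR, which is 34.4%, and 2 rose, which is 6.25%. The count that rose was 1 without control replicate 2 or 3 and 0 without any other single library. Without control replicate 3 the chain that rose was neither of the 2 called in the full fit. With 1 library left out, the count that fell was 8 to 11. The median log2 fold change of the 32 was -0.81, beside -0.01 over all tested genes, and 25 had a negative value. In the subset whose higher group averaged at least 1 FPKM, 23.3% of all tested genes were lower and 27.6% higher, and of the 9 chains there 7 fell and 1 rose. The 23 tested chains under that level held 4 that fell and 1 that rose. Over all 19200 tested genes 3476 fell and 3928 rose, and 2860 and 3396 of these were among the 12298 at or above that level. Groups did not overlap in normalised counts (CPM) in 20 of the 32 chains, with 53.9% of all tested genes doing so.

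**Figure D2:**
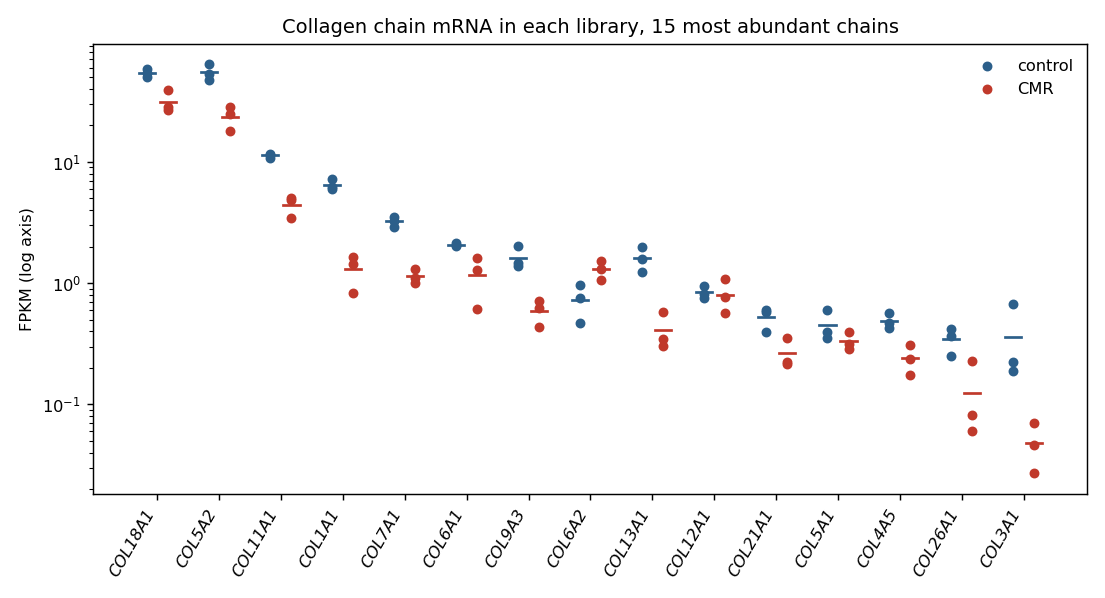
Level (FPKM, log axis) of the 15 most abundant collagen chains, ordered by their mean over 6 libraries; points are libraries and bars are group means. COL18A1 averages 54.5 FPKM in control and 31.4 with CMR, and COL6A2 is higher with CMR while COL1A1, COL7A1 and COL11A1 are lower in every CMR library.

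Fibrillar chains had 4 of 10 tested members lower and none higher, beside 18.1% lower and 20.5% higher over all tested genes. COL5A2, a chain of the type V collagen that seeds and thins fibrils, was the most abundant fibrillar chain. Its levels were 28.1, 24.9 and 18.0 FPKM with CMR and 63.7, 53.4 and 47.8 in control. All 3 CMR libraries were below all 3 controls (log2 fold change -1.14 ± 0.17 SE, edgeR adjusted p = 0.00215). COL5A2 (ENSG00000204262) lies on the minus strand of chromosome 2 in the deposited table, next to COL3A1 on the plus strand, with 19151 bases and no protein-coding gene between them.

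COL11A1, which encodes a chain of the type XI collagen found in cartilage fibrils, was the next fibrillar chain in level. It was at 4.84, 5.03 and 3.47 FPKM with CMR and 10.9, 11.7 and 11.5 in control. The groups did not overlap and the controls were close together (log2 fold change -1.27 ± 0.14 SE, edgeR adjusted p = 0.000668). COL1A1 encodes the main chain of type I collagen, the bulk collagen of skin, bone and tumour stroma. Its levels were 1.44, 1.63 and 0.825 FPKM with CMR and 6.24, 7.28 and 5.97 in control, a fall in every CMR library (log2 fold change -2.24 ± 0.25 SE, edgeR adjusted p = 0.000618).

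COL1A2, the partner with which COL1A1 normally forms type I collagen, was close to absent. It had 0 counts in all 3 CMR libraries and in control replicate 1, and 40 and 51 counts in the other control libraries. With a floor of 3 counts over the pooled CMR group, the pooled control level was at least 35.4-fold higher, but the gene did not pass the filter on low counts. With no filter it was not called (edgeR adjusted p = 0.0561). COL3A1, the chain of type III collagen, which often accompanies type I, was at 0.0460, 0.0709 and 0.0270 FPKM with CMR. In control it was at 0.188, 0.673 and 0.223 FPKM, with control replicate 2 well above the others. It fell (log2 fold change -2.82 ± 0.61 SE, edgeR adjusted p = 0.00992) from a level far below that of its neighbour COL5A2. Without control replicate 2 the log2 fold change was -2.01 (edgeR adjusted p = 0.0233), and with limma on log2(FPKM + 1) the call was lost (adjusted p = 0.0648).

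COL5A1, which pairs with COL5A2 in type V collagen, was at 0.315, 0.394 and 0.288 FPKM with CMR and 0.397, 0.605 and 0.354 in control, and the groups overlapped. Its difference was not called (log2 fold change -0.37, 95% interval -0.96 to 0.23). COL2A1, COL5A3, COL11A2, COL24A1 and COL27A1 averaged at most 0.132 FPKM in both groups, and none was called.

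**Figure D3:**
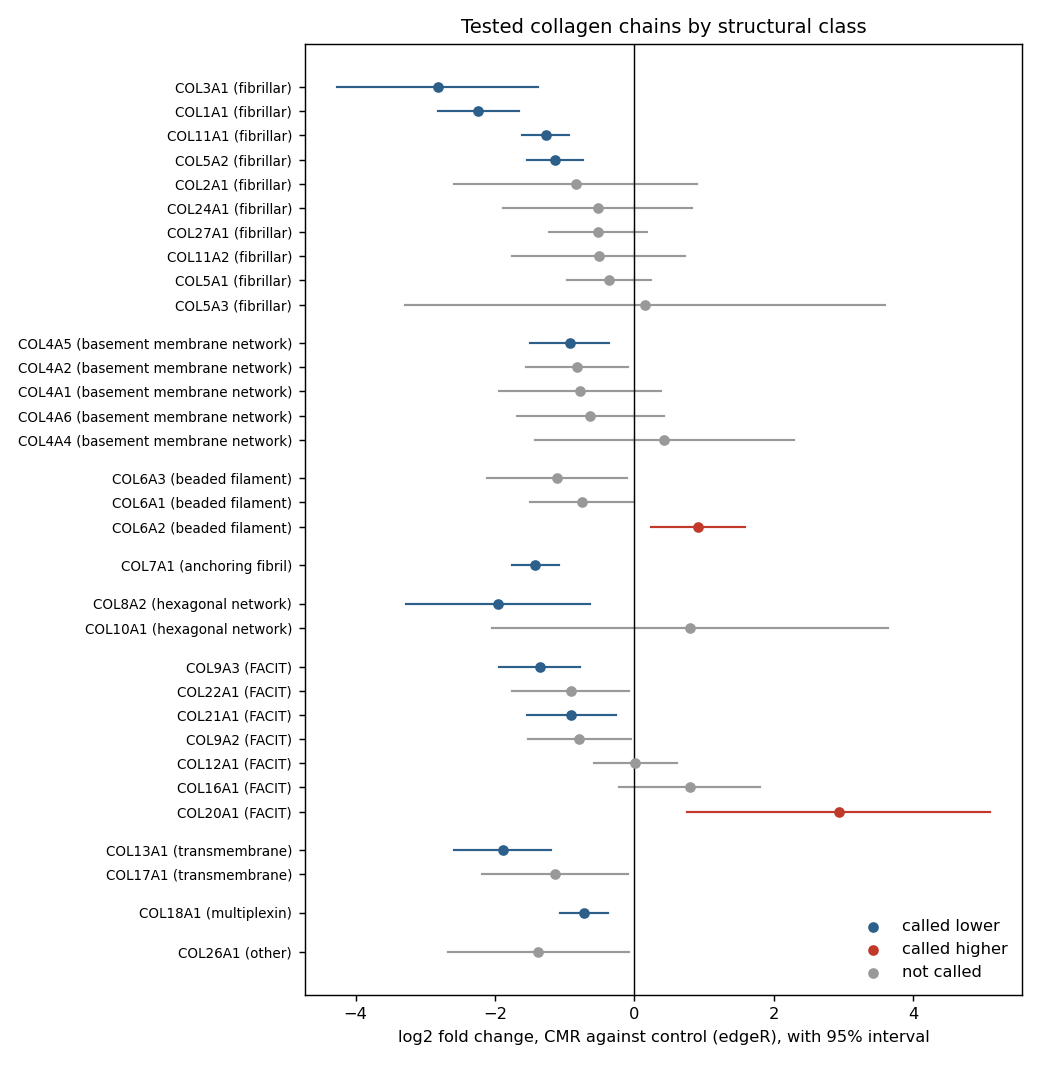
Log2 fold change (CMR against control) of the 32 tested collagen chains with 95% intervals, grouped by structural class. Values left of 0 are lower with CMR; 11 chains are called lower and 2, COL6A2 and COL20A1, higher.

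Basement membrane chains were scarce in this line, and 1 of 5 tested members fell, a share near the 18.1% over all tested genes. COL4A5 was at 0.311, 0.236 and 0.175 FPKM with CMR and 0.466, 0.567 and 0.423 in control, without overlap (log2 fold change -0.93 ± 0.24 SE, edgeR adjusted p = 0.0202). Removing CMR replicate 2 (0.0617), or either of control replicates 1 (0.0529) and 2 (0.0733), ended that call. COL4A1 and COL4A2 encode the chains of the common type IV molecule and share the interval printed above. COL4A1 was at 0.0541, 0.0371 and 0.0218 FPKM with CMR and 0.0322, 0.0863 and 0.0842 in control, with overlap (log2 fold change -0.78, edgeR adjusted p = 0.259). COL4A2 was at 0.0948, 0.0939 and 0.0471 with CMR and 0.165, 0.126 and 0.147 in control. Its groups did not overlap, yet it was not called (adjusted p = 0.0740 by edgeR, log2 fold change -0.82); DESeq2 called it (0.0385), as did edgeR with upper-quartile scaling (0.0473). The spans of COL4A1 and COL4A2 overlap in the deposited table, and whether reads were counted by strand is not stated, so reads in the shared bases may belong to either gene.

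The remaining type IV chains are those of specialised membranes. COL4A6, which starts back to back with COL4A5, was not called (adjusted p = 0.314 by edgeR, log2 fold change -0.63), and neither was COL4A4. COL4A3 had 23, 39 and 8 counts with CMR and 0, 0 and 6 in control and was not tested by the filtered fit. With no filter it was not called (edgeR adjusted p = 0.135). The COL4A3 span overlaps that of AC097662 on the other strand, which had 284% of its counts.

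COL18A1, a multiplexin of basement membrane zones whose end fragment is endostatin, had the highest mean level of all chains over the 6 libraries, with COL5A2 level with it in control. It lies on the plus strand of chromosome 21. Its levels were 39.2, 28.4 and 26.6 FPKM with CMR and 58.9, 50.2 and 54.5 in control. It fell without overlap between the groups (log2 fold change -0.72 ± 0.14 SE, edgeR adjusted p = 0.00686), and whether its fold change differs from those of other chains was not tested. COL15A1, the other multiplexin, had no count with CMR and 17 in control, too few to be tested.

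COL7A1, the chain of the anchoring fibrils that tie epithelium to the tissue below, fell in every CMR library. It was at 1.10, 1.31 and 1.01 FPKM with CMR and 2.90, 3.25 and 3.53 in control (log2 fold change -1.42, SE 0.14; adjusted p = 0.000447, edgeR). Of the transmembrane collagens, COL13A1, a chain of cell adhesion sites, was at 0.581, 0.348 and 0.302 FPKM with CMR and 1.59, 1.24 and 2.0 in control. It fell without overlap (log2 fold change -1.89 ± 0.30 SE, edgeR adjusted p = 0.00250). COL17A1, a hemidesmosome protein of basal epithelial cells, was near 0: 0.0540, 0.0374 and 0.0442 FPKM with CMR and 0.0761, 0.0766 and 0.165 in control. The groups did not overlap, and it was not called (adjusted p = 0.0845 by edgeR, log2 fold change -1.14).

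Type VI collagen forms beaded filaments around cells from 3 different chains. Of 3 tested beaded-filament chains, COL6A2 was called higher and none lower. That is too few to set against the 20.5% higher and 18.1% lower over all tested genes. COL6A2 was at 1.31, 1.54 and 1.06 FPKM with CMR and 0.749, 0.970 and 0.467 in control. All CMR libraries were above all controls (log2 fold change 0.91 ± 0.29 SE, edgeR adjusted p = 0.0412). COL6A1, which lies on the same strand of chromosome 21 with 93046 bases and no protein-coding gene between, had a fold change of the opposite sign. It was at 1.60, 1.29 and 0.607 FPKM with CMR and 2.04, 2.15 and 2.05 in control, lower in all CMR libraries but not called (log2 fold change -0.76, 95% interval -1.50 to -0.01, edgeR adjusted p = 0.101). It was called by DESeq2 (0.0388) and without CMR replicate 1 (0.0463). COL6A3 was at 0.0425, 0.0445 and 0.0175 FPKM with CMR and 0.0504, 0.0963 and 0.0910 in control, without overlap (log2 fold change -1.11, edgeR adjusted p = 0.0797; 0.0465 by DESeq2).

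The rise of COL6A2 rested on a narrow margin. It was lost on removal of CMR replicate 1 (edgeR adjusted p = 0.0833), of CMR replicate 2 (0.128), of CMR replicate 3 (0.0542), of control replicate 1 (0.0998) or of control replicate 3 (0.0822), and also with upper-quartile scaling (0.0700) or library totals (0.0552), and in 9 of 14 alternatives in all (adjusted p from 0.00752 to 0.128). Its direction was upward in all 14 alternatives.

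Among fibril-associated chains 2 of 7 tested members fell and 1 rose, too few to set against the 18.1% and 20.5% over all tested genes. COL9A3, a chain of the type IX collagen of cartilage fibrils, was at 0.626, 0.714 and 0.432 FPKM with CMR and 1.37, 2.01 and 1.46 in control. It fell without overlap (log2 fold change -1.36 ± 0.25 SE, edgeR adjusted p = 0.00468). Its span overlaps that of TCFL5 on the other strand, which had 419% of its counts and a log2 fold change of -0.34. COL12A1, a chain that coats type I fibrils, was at 0.566, 0.769 and 1.08 FPKM with CMR and 0.751, 0.821 and 0.956 in control. The CMR libraries spanned the controls (log2 fold change 0.02, 95% interval -0.58 to 0.61).

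The other called chains averaged under 1 FPKM in both groups, as did COL3A1 and COL4A5. COL8A2, of the hexagonal network of the eye and vessels, fell from 0.172 to 0.0409 FPKM (log2 fold change -1.96, edgeR adjusted p = 0.0293). COL21A1, another fibril-associated chain, fell from 0.527 to 0.265 FPKM (log2 fold change -0.90, edgeR adjusted p = 0.0357). COL20A1 was the fibril-associated chain that rose. It had 19, 30 and 24 counts with CMR and 0, 4 and 4 in control (log2 fold change 2.93, edgeR adjusted p = 0.0409). The COL20A1 call was lost on leaving out any 1 library (adjusted p from 0.0540 to 0.126, edgeR), and those of COL8A2 and COL21A1 on leaving out some. COL26A1 was not called (adjusted p = 0.0888 by edgeR, log2 fold change -1.38), but it was called lower without CMR replicate 2 (log2 fold change -2.18, adjusted p = 0.0151), with the replicate block (0.0437) and with limma (0.0342). COL16A1, COL22A1, COL9A2 and COL10A1 were not called. The COL10A1 span overlaps that of NT5DC1 on the other strand, with a mean count of 3811 beside 15.8 for COL10A1. The COL16A1 span overlaps that of AC114488 on the other strand, which had 13.1% of its counts. The 19 tested chains without a call had log2 fold changes from -1.38 to 0.80, 14 of them negative.

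Partner chains were then compared as within-library ratios of FPKM, since chains of one molecule are needed together. Of 9 pairs listed, 7 had at least 10 counts of both chains in every library; COL1A1/COL1A2 and COL8A1/COL8A2 did not. With 3 libraries against 3, the two-sided exact permutation test cannot go below p = 0.10. The ratio of COL6A1 to COL6A2 was 1.22, 0.842 and 0.575 with CMR and 2.72, 2.21 and 4.39 in control. The groups did not overlap, with a log2 difference of -1.83 (exact permutation p = 0.10, the smallest possible, and 0.35 after Benjamini-Hochberg adjustment over 7 pairs). COL6A1 was therefore the more abundant of the pair in every control library and in CMR replicate 1 only among the CMR libraries.

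COL11A1 was 15.4, 12.8 and 12.1 times as abundant as COL5A1 with CMR and 27.3, 19.4 and 32.4 times in control. These groups did not overlap either (log2 difference -0.95, exact permutation p = 0.10, adjusted 0.35). COL5A2 exceeded COL5A1 by 89.3, 63.2 and 62.7 times with CMR and 160, 88.4 and 135 times in control, with overlap (exact permutation p = 0.20, adjusted 0.467). The imbalance between the type V chains was thus a property of both groups. COL6A3 was far below COL6A1 in all libraries, 29.1 to 37.7 times with CMR and 22.3 to 40.4 times in control. The ratios COL4A1/COL4A2, COL4A5/COL4A6 and COL9A2/COL9A3 overlapped between groups (exact permutation p = 1.0, 0.70 and 0.30).

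**Figure D4:**
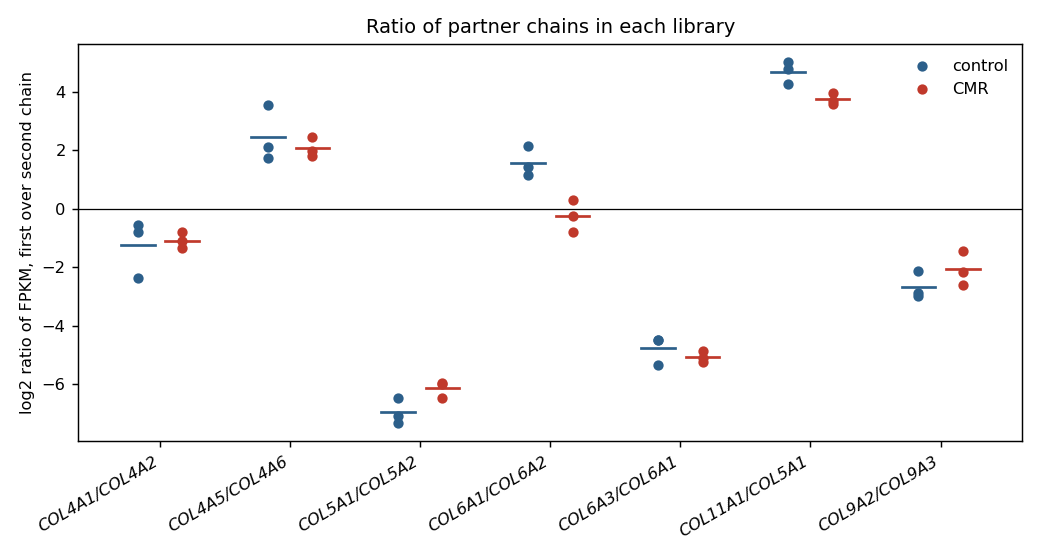
Log2 ratio of FPKM of 2 partner chains in each library, with group means as bars. The COL6A1/COL6A2 ratio lies between 1.15 and 2.13 (log2) in control and between -0.80 and 0.29 with CMR; COL5A1/COL5A2 is at or below -5.97 in all 6 libraries.

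The 12 untested chains had from 0 to 91 counts summed over all libraries. COL6A5 and COL19A1 had none. COL6A6, COL8A1, COL9A1, COL14A1 and COL25A1 had under 10. COL23A1 had 0, 13 and 8 counts with CMR and none in control.

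By correlation of log2 normalised CPM over the 6 libraries, among 6477 genes of at least 5 FPKM, the genes most like COL1A1 were BUB1B, FKBP3, GINS1, CDCA2 and CKAP5 (Pearson r from 0.999 for CKAP5 to 0.9997 for BUB1B). Those most like COL4A1 were GTF3A, AC016700, RPL7P23, DHX32 and LBR (r = 0.958 to 0.984). The 6 points share their libraries and fall into the 2 groups, so such values describe a pattern only.

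Genes that act on collagen were counted from lists by role, to be read beside the 20.5% higher and 18.1% lower of all tested genes. Of 20 genes that fold and modify chains in the ER, 8 rose and 3 fell, with a median log2 fold change of 0.27; the share that fell was not above the 18.1% of all tested genes. P4HB, the subunit of prolyl 4-hydroxylase that is also protein disulfide isomerase, rose from 84.7 to 294 FPKM (log2 fold change 1.87 ± 0.09 SE, edgeR adjusted p = 4.3e-05). PPIB, a proline isomerase of the ER, rose 3.20-fold and FKBP14, another, 3.78-fold. SERPINH1, the collagen-specific chaperone HSP47, rose 1.60-fold (edgeR adjusted p = 0.00196). P3H2, a prolyl 3-hydroxylase, was 3.40-fold lower.

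Of 11 genes for export of procollagen from the ER, 9 rose, where 20.5% of all tested genes did, and none fell (median log2 fold change 1.44). SEC24D, a cargo-binding coat subunit, rose 8.73-fold, MIA2 4.01-fold and MIA3, the procollagen export receptor TANGO1, 3.40-fold. SEC13, of the outer coat, rose 3.03-fold. The 2 genes not called were SAR1A (log2 fold change 1.25, edgeR adjusted p = 0.0559) and KLHL12 (-0.07, edgeR adjusted p = 0.597). The list includes coat subunits that are not particular to procollagen. Whether the rise of these genes is specific to procollagen export was not tested.

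Of 12 tested genes for propeptide cleavage and crosslinking, mRNA was lower for 8 and higher for 1 (median -0.91), beside 18.1% and 20.5% of all tested genes. BMP1, PCOLCE and LOXL3, among these 8, averaged under 1 FPKM in both groups. Removing CMR replicate 3, or either of control replicates 1 and 2, left 5 lower. LOX, the crosslinking lysyl oxidase, was the gene that rose: it averaged 0.171 ± 0.0514 FPKM (SD, n = 3) in the controls and 6.82 ± 2.86 in the treated libraries, a log2 fold change of 5.38. SRFBP1, on the opposite strand, shares bases with the LOX span, had 165% of its counts and a log2 fold change of 0.89. PXDN, the peroxidase that crosslinks type IV collagen, was 4.34-fold lower. The proprotein convertase gene FURIN was 2.21-fold lower. PCOLCE2, an enhancer of propeptide cleavage, was 2.51-fold lower, a call lost on removal of control replicate 2 (edgeR adjusted p = 0.0519).

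Among 10 tested collagen receptors 3 fell and 1 rose, beside 18.1% lower and 20.5% higher over all tested genes, and nothing is read from these shares. DDR1, a receptor tyrosine kinase activated by collagen, fell from 4.47 to 1.83 FPKM (log2 fold change -1.21 ± 0.19 SE, edgeR adjusted p = 0.00278). ITGB1, the shared beta chain of collagen-binding integrins, was 1.67-fold lower and ITGA10 2.75-fold lower, while ADGRG1, a receptor for type III collagen, was 1.88-fold higher. Of 11 tested collagen breakdown genes 3 were higher and 4 lower, beside 20.5% and 18.1% of all tested genes, with 2 lower without control replicate 1 or control replicate 2. MMP2, a gelatinase, was 3.51-fold lower and MMP16 1.90-fold lower. The lysosomal protease gene CTSL was 1.82-fold higher. CTSB was 1.35-fold lower, a call that ended on removal of CMR replicate 2 (edgeR adjusted p = 0.0538) or of either control replicate 1 (0.0614) or 2 (0.0640). Of 6 tested fibril-bound proteins 2 fell (18.1% of all tested genes did), SPARC, a collagen-binding matricellular protein, by 4.09-fold and FN1, fibronectin, by 2.84-fold; FN1 was chosen after its values were seen.

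**Figure D5:**
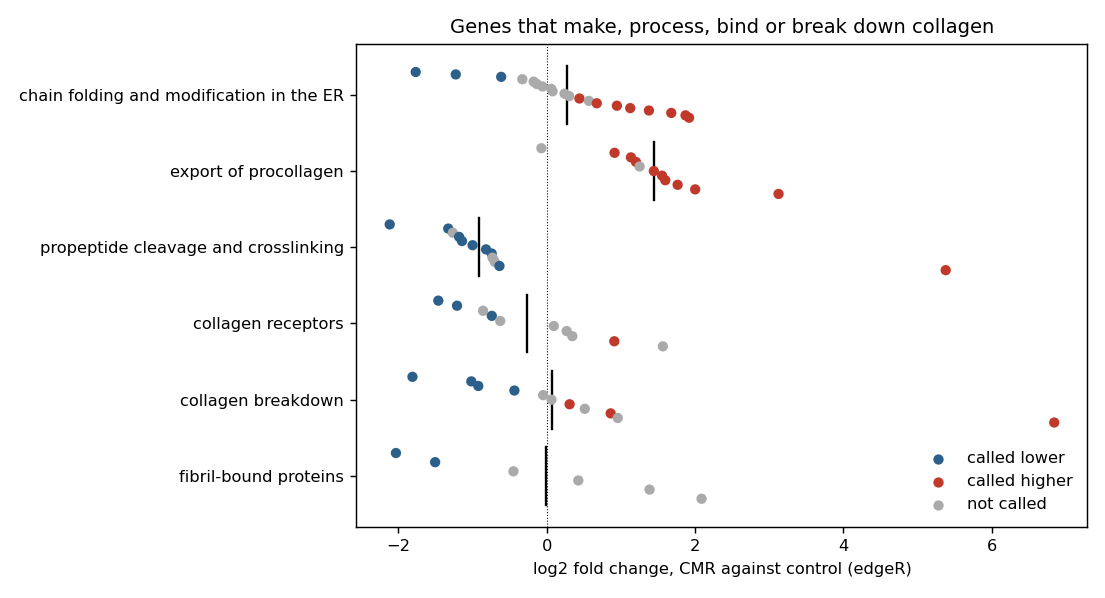
Log2 fold change (CMR against control) of tested genes that fold, export, process, bind or break down collagen; each point is a gene and bars are list medians. Export genes centre at 1.44, and propeptide cleavage and crosslinking genes at -0.91 with LOX at 5.38; the point farthest right in the breakdown list is PRSS1, which had no count in control, so its fitted value is no measure of size.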

How the data were processed

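The members and gene lists were chosen with earlier results of these data known. The deposited count values are whole numbers per gene with no scaling, per the file headers; the sources used here do not say how they were tallied. The FPKM values were deposited too: here each is per kilobase and per library, and a gene without counts carries 0.0001. StringTie 1.3.0, HISAT2 2.0 and Bowtie 0.12.2 are named in the submitters' processing notes beside a mouse build (mm8), although every identifier is human. All 44 collagen genes are in GENCODE release 29 (GRCh38), 22 of them with identical spans, as were 81.2% of all genes matched; spans were therefore read as GRCh38. No column (0) lacked a sample.

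Counts were tested with edgeR 4.0.16 (R 4.3.3): TMM scaling, filterByExpr (minimum count 10, minimum total 15), the quasi-likelihood test, and adjustment by Benjamini-Hochberg across 19200 genes. Standard errors were taken as the absolute log2 fold change over the root of F. Levels in the text are FPKM. In simulated counts for the 19200 tested genes, 12% of 2-fold, 60% of 4-fold and 68% of 8-fold changes were recovered. The changed genes were drawn at random from all tested genes, 50 at each size, and 10 unchanged genes were called. Far fewer genes changed there than were called in the data, which makes the adjusted cutoff stricter. These shares therefore do not give the recovery of the actual fit. Named were called chains of at least 1 FPKM, 14 chains irrespective of result, other called chains in a sentence, and up to 4 called genes of at least 1 FPKM per role list, with P4HB, SERPINH1, LOX and DDR1 always. Alternatives were other scalings, filters and tools (limma 3.58.1, DESeq2 1.42.0), a replicate block and leaving out each library; the alternatives for partner and marker genes were chosen after seeing the data. Overlapping spans are given where the other gene had at least 10% of the counts, for chains with any count and for the named genes of the role lists. Reads and protein sequences were not analysed here.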

Additional observations from a re-analysis of the deposited data

How the results depend on the processing

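COL1A1, COL5A2, COL7A1, COL9A3, COL11A1, COL13A1 and COL18A1 were called lower under all 14 alternatives. None of these alternatives addressed the overlap of the COL9A3 span with that of TCFL5. The count of chains lower, 11 in the main analysis, was 8 to 11 on leaving out each library and 7 among genes of at least 1 FPKM, where fewer genes are tested. It was 12 with upper-quartile scaling, 14 with DESeq2, and 10 with no filter or with limma on log2(FPKM + 1). The count higher, 2, was 0 or 1 on leaving out each library: 1 without control replicate 2 or 3 and 0 otherwise. Without control replicate 3 the 1 chain called higher was neither COL6A2 nor COL20A1, which both lost their calls there. The count higher was 1 with upper-quartile scaling, with library totals, with the replicate block and among genes of at least 1 FPKM. It was 0 with no filter or with limma on log2(FPKM + 1). With limma on log2(FPKM + 1) the median log2 fold change was -0.084, since a pseudocount of 1 shrinks the changes of low genes. In the edgeR fit of genes of at least 1 FPKM, the median of the chains was -1.32. Upper-quartile scaling moved the median of all genes to -0.14 and that of the chains to -0.93.

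COL12A1, never called, reversed to -0.12 with upper-quartile scaling, -0.063 with library totals, -0.038 with limma and -0.031 with the replicate block, and leaving out each library gave -0.27 to 0.22. The COL4A1/COL4A2 log2 difference, 0.15, ranged from -0.41 to 0.49 on leaving out each library, and COL4A5/COL4A6, -0.39, from -0.76 to 0.16. The cause of these shifts was not tested. As a share of raw counts, which are not per length, collagen made up 0.136% in control and 0.0659% with CMR.

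Same-numbered libraries deviated together only weakly (r = 0.0595 to 0.0682, the others -0.0356 to -0.0263); every library correlated best with its own number, a hint from the data and not the design. With the replicate block, 6737 genes were called against 7404, COL20A1 (edgeR adjusted p = 0.0771) and COL21A1 (0.0828) lost their calls, and COL26A1 gained one as lower (0.0437). The block thus called 12 chains, 11 of them shared with the unblocked fit. COL21A1 also lost its call with no filter (0.0589) and without CMR replicates 2 or 3 or control replicates 2 or 3 (adjusted p up to 0.110). COL20A1 lost its call on leaving out any library (0.0540 to 0.126). COL8A2 lost its call without CMR replicate 1 (0.0648), CMR replicate 3 (0.0708) or control replicate 2 (0.118). Low counts kept 12 of the 44 chains out of the test.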
